A study of Mus musculus with 12 samples.

Results

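Growth factors and repair cytokines that macrophages release at sites of tissue damage were followed through 12 RNA-seq libraries of bone marrow-derived macrophages (BMDMs). The group was defined by name and holds 10 genes of the 34327 in the deposited table: Igf1, Pdgfa, Pdgfb, Pdgfc, Vegfa, Tgfb1, Hbegf, Areg, Osm and Hgf. All 10 names were found, each under 1 gene identifier.

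BMDMs are macrophages differentiated in a dish from marrow cells, here of wild-type C57BL/6 mice in medium conditioned by L929 cells, a fibroblast line that supplies the macrophage growth factor M-CSF. The cells were plated on tissue culture (TC) plastic or embedded in floating gels of rat tail collagen I at 2 mg/ml (low-collagen gels) or 7 mg/ml (high-collagen gels), and in each setting they were left untreated or given the type 2 cytokine IL-4 at 20 ng/ml. The labels state 24 hours, without saying whether of culture or of stimulation, and each of the 6 conditions had 2 libraries. The paper's methods give a range of stimulation times for RNA from gels and a different range for plates. No library is tied to an animal or a separate culture in the labels, so p-values measure the spread between these libraries, which may be technical. Gels and plates also differ in how cells were seeded and RNA was recovered, which cannot be told apart from the collagen itself.

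Wound repair depends on secreted factors that act on neighbouring cells. VEGF-A drives the growth of blood vessels, the platelet-derived growth factors (PDGFs) act on fibroblasts and other mesenchymal cells, and IGF-1 supports the growth and survival of muscle, epithelial and stromal cells. TGF-beta 1 is secreted in a latent complex and promotes matrix production once released, while HB-EGF and amphiregulin are ligands of the EGF receptor that are made as membrane-bound precursors. Oncostatin M belongs to the IL-6 family, and hepatocyte growth factor acts on epithelial cells through the receptor Met. IL-4 signals through STAT6 and gives macrophages a gene expression program associated with repair.

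Abundance is given as TPM, the share of transcripts that belong to a gene after allowing for transcript length. It carries no read depth, so no counting interval can be given. Between 11543 and 11910 genes reached 1 TPM in a library, and replicate libraries correlated at r = 0.980 to 0.985 across genes. Macrophage markers summed to between 17460 and 53485 TPM, and all 7 had a mean of at least 1. Fibroblast markers summed to 0.0608 to 8.17 TPM, with 1 of 7 at a mean of at least 1, which was Postn, at 3.66 to 8.03 TPM in the 4 gel libraries with IL-4. Col1a1 did not exceed 0.177 TPM in any library. The endothelial list summed to 2.28 to 14.0 TPM, the list for mast cells, basophils and ILC2 to 0.854 to 9.23 TPM, that for neutrophils and progenitors to 5.42 to 32.3 TPM, that for eosinophils to 0.333 to 2.31 TPM, that for dendritic cells to 0.652 to 1.34 TPM and that for lymphocytes to 0 to 0.518 TPM. Ly6g, Epx and Fcer1a were listed at 0 in every library. The macrophage list was lowest on TC plates with IL-4 (17460 to 17465 TPM) and highest in untreated high-collagen gels (53418 to 53485 TPM). Its markers did not all move together. The 7 names had 8 tested entries. At an adjusted p under 0.2, 2 of the 8 were higher and 5 lower with IL-4 on plates. Of all genes 14.7% were called higher and 24% lower there. In untreated high-collagen gels 6 of 8 were higher and 1 lower than on plates, against 28% and 45.5% of all genes. In each comparison 1 entry was not called. The neutrophil and progenitor list was higher in untreated low-collagen gels (24.3 to 32.3 TPM) than on untreated plates (6.94 to 10.6 TPM). The part of these lists in the differences between conditions was not tested, and in bulk samples fewer cells of a type and less RNA per cell cannot be told apart. As the check of IL-4, Arg1, the arginase of IL-4-treated macrophages, was at 1.76 to 46.3 TPM in the 6 untreated libraries and at 3069 to 7958 TPM in the 6 libraries with IL-4.

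The 10 factors differed widely in level. Igf1 had the highest mean over the 12 libraries (662 TPM), followed by Vegfa (299 TPM) and Tgfb1 (178 TPM). Pdgfa (23.4 TPM), Osm (12.6 TPM), Pdgfb (11.6 TPM), Hbegf (8.58 TPM), Hgf (6.98 TPM) and Pdgfc (5.81 TPM) were expressed at lower levels. Areg averaged 0.0814 TPM and was listed at 0 in 9 libraries. The order changed with the condition, since Igf1 led on TC plates and in both gels with IL-4 and Vegfa led in both untreated gels. Hbegf and Vegfa varied most, with condition means 384 and 19.7 times apart, and Tgfb1 varied least among the measured factors, at 1.32 times. The ratio of Hbegf is uncertain, since its lowest mean was 0.0733 TPM, in untreated high-collagen gels. As log2 of TPM + 1 the condition means of Hbegf and Vegfa spanned 4.76 and 4.26.

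**Figure D1:**
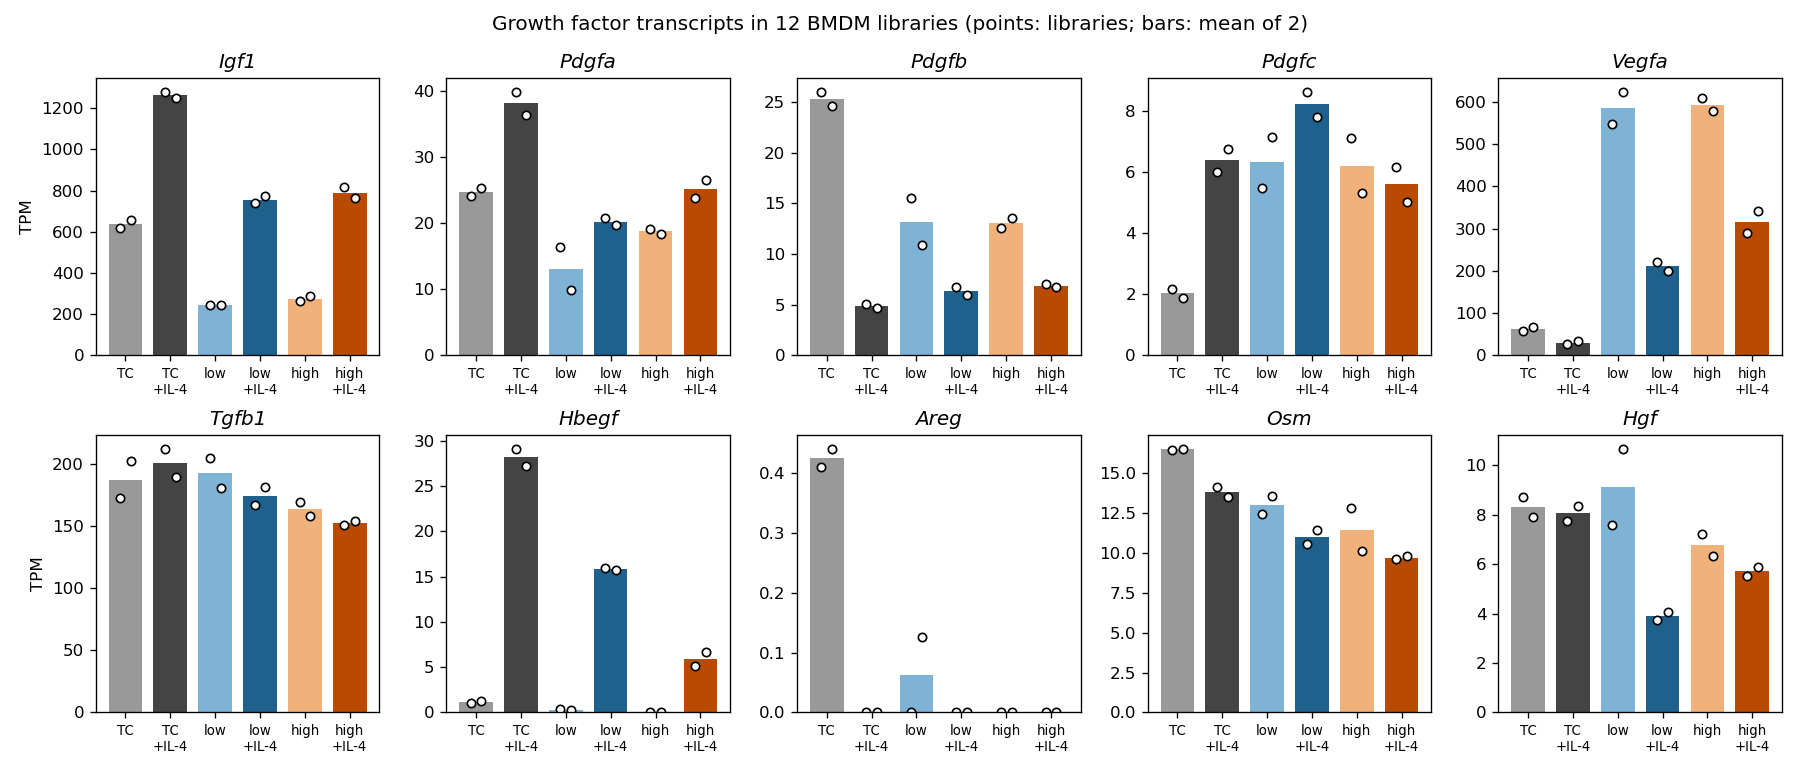
Transcript level of each factor in TPM (linear axis from 0, a scale of its own for each gene) in the 6 conditions, where points are libraries and bars the mean of 2. Vegfa stood between 199 and 624 TPM in the 8 gel libraries and at most at 67.0 TPM on TC plates, Hbegf was high in the 6 libraries with IL-4, and Tgfb1 stayed between 151 and 212 TPM.

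IL-4 raised Igf1 and Hbegf and lowered Vegfa and Pdgfb in all 3 culture settings, and left Tgfb1 without a call in any of them. A gene was called at a Benjamini-Hochberg adjusted p under 0.2, the threshold the study used, in limma fits of log2(TPM + 1) over all genes with a mean of at least 1 TPM. In low-collagen gels 6 of the 9 factors tested were called, 3 higher and 3 lower, where 13.2% of all genes were called higher and 40.4% lower. In high-collagen gels 4 of 9 were called, 2 in each direction, against 11.5% higher and 22.8% lower. On TC plates 7 of 9 were called, 4 higher and 3 lower, against 14.7% higher and 24% lower. There 6 of the 9 had an unadjusted p under 0.05. The median log2 change over all genes tested was −0.19, −0.10 and −0.06 in these settings, and that of the factors was −0.14, −0.12 and 0.10. Rescaling each library by the median ratio of its genes moved the medians of all genes to within 0.01 of 0. The calls among the factors then numbered 7, 5 and 6. Of all 11852 genes, 2791 were then called higher and 2497 lower in low-collagen gels, and 1989 and 1766 in high-collagen gels. On TC plates these numbers were 2236 and 2403 of 11865.

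**Figure D2:**
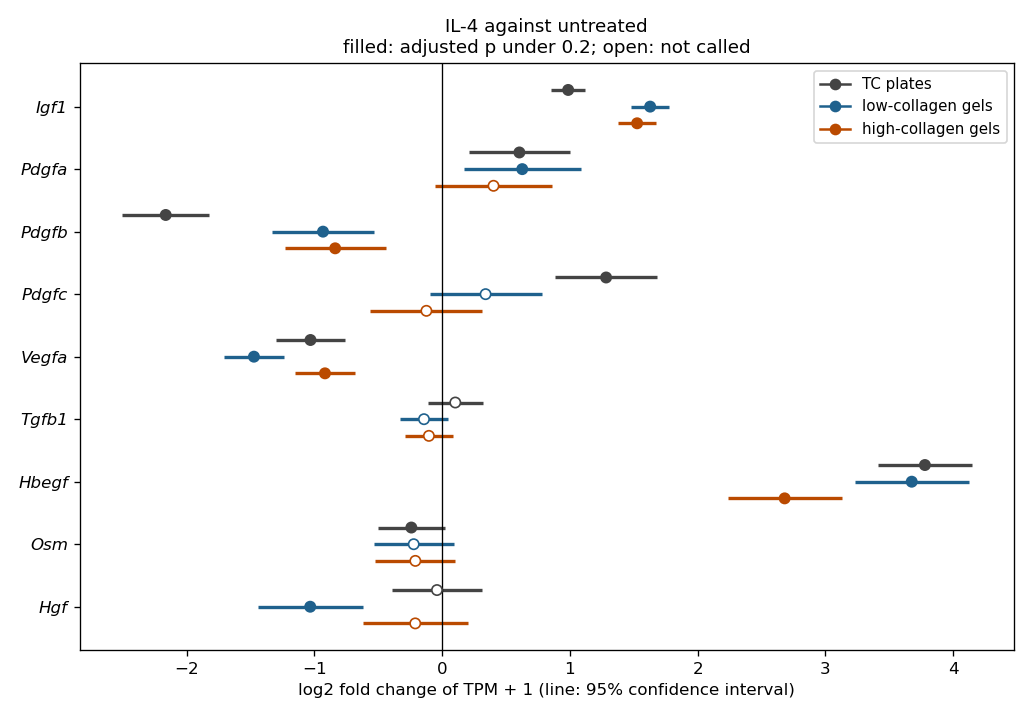
Change with IL-4 against untreated cells of each factor, as log2 fold change of TPM + 1 with its 95% confidence interval, on TC plates and in low- and high-collagen gels (filled points passed an adjusted p under 0.2, open points did not). Hbegf and Igf1 lie to the right of 0 and Vegfa and Pdgfb to the left in all 3 settings, whereas Pdgfc was called on TC plates and Hgf in low-collagen gels.

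Culture in gels was accompanied by far more Vegfa and less Igf1 and Hbegf than culture on TC plates. Without IL-4, 7 of the 9 factors were called in low-collagen gels, 2 higher and 5 lower, where 28.5% of all genes were called higher and 44.3% lower. In high-collagen gels without IL-4 all 9 tested factors were called, 2 higher and 7 lower, against 28% higher and 45.5% lower. With IL-4, the call was made for 9 in low-collagen gels, 3 higher and 6 lower, against 22.8% higher and 52.2% lower, and for 8 in high-collagen gels, 2 higher and 6 lower, against 26.5% higher and 48.1% lower. Most genes were thus called in each of these comparisons, and the share of factors called lower was read against them only as a count. In the same order, 7, 6, 6 and 8 of the 9 factors had an unadjusted p under 0.05. Among called factors, the 95% confidence interval included 0 for Hgf, Tgfb1 and Pdgfa in untreated high-collagen gels. It also did for Pdgfb, Pdgfc and Tgfb1 in low-collagen gels with IL-4. The low- and high-collagen comparisons share their TC libraries.

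Part of the lower values of weakly changed factors depended on scaling. The median log2 difference over all genes was −0.13 and −0.16 in untreated low- and high-collagen gels and −0.28 and −0.20 with IL-4, and median-ratio rescaling moved it to 0.02, 0.01, 0.01 and 0.02. The rescaled counts were 4 higher and 4 lower in untreated low-collagen gels and 2 and 4 in untreated high-collagen gels. Of all 11865 genes, 4397 were then called higher and 4270 lower in the former, and 4392 and 4352 in the latter. With IL-4 the rescaled counts were 3 and 4 in low-collagen gels and 2 and 4 in high-collagen gels. Of all genes, 4316 were higher and 4238 lower in these low-collagen gels, and 4464 and 4314 in the high-collagen gels. All calls of Vegfa, Igf1, Hbegf and Pdgfb remained in those 4 comparisons. With IL-4, however, rescaling moved Igf1 from −0.74 to −0.42 in low-collagen and from −0.68 to −0.43 in high-collagen gels, Hbegf from −0.79 to −0.49 and Pdgfb from 0.32 to 0.59 in low-collagen gels. The call of Pdgfc in low-collagen gels with IL-4 also remained (0.32, rescaled 0.60), and values of Osm and Pdgfa that stayed called moved toward 0, to −0.32 and −0.24 for Osm in untreated and IL-4-treated high-collagen gels and to −0.57 and −0.34 for Pdgfa in IL-4-treated low- and high-collagen gels. Some calls of Tgfb1, Osm, Hgf and Pdgfa were lost, as given with each gene.

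**Figure D3:**
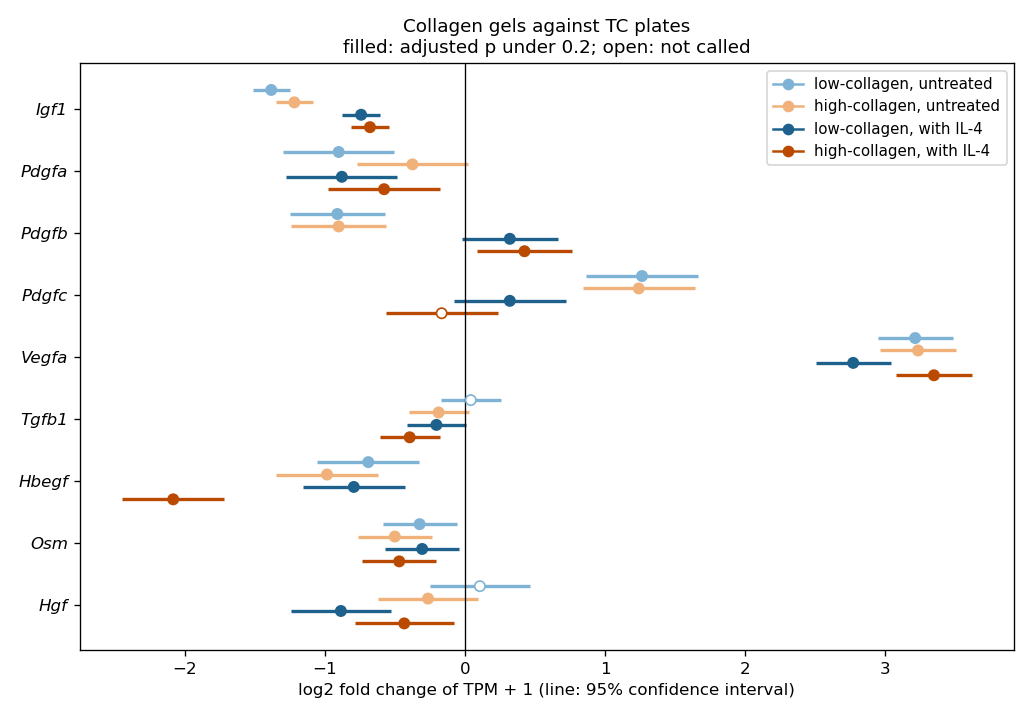
Difference of each factor between collagen gels and TC plates, as log2 fold change of TPM + 1 with its 95% confidence interval, for low- and high-collagen gels without and with IL-4 (filled points passed an adjusted p under 0.2). Vegfa lies near 3 in all 4 comparisons, Pdgfb lies below 0 without IL-4 and above 0 with it, and the 4 values of Igf1 lie between −1.38 and −0.68.

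Between high- and low-collagen gels some factors were called with IL-4 and none without it, but the difference of the IL-4 effect was called for 0 of 9. Pdgfa differed by 0.53 without IL-4 and by 0.30 with it, so a missing call did not mean a smaller difference. With IL-4, 4 of 9 were called, with Vegfa and Hgf higher and Hbegf and Pdgfc lower in high-collagen gels, where 14.1% of all genes were called higher and 6.99% lower. Without IL-4, limma called 0 of 9 factors, against 3.23% of all genes higher and 4.79% lower, and 3 of 9 had an unadjusted p under 0.05. For the difference of the IL-4 effect between high- and low-collagen gels it again called 0 of 9, against 0.194% higher and 0.169% lower, with 3 of 9 at an unadjusted p under 0.05. A comparison of 2 libraries with 2 by exact permutation cannot give a p below 0.333, so no single gene can pass such a test.

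**Figure D4:**
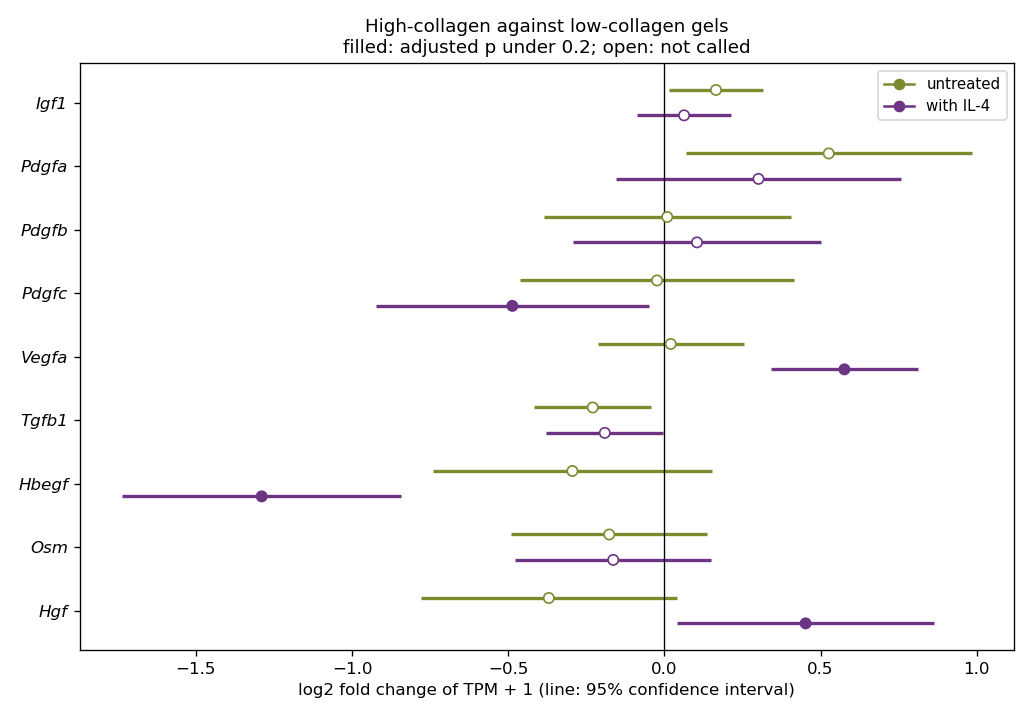
Difference between high- and low-collagen gels of each factor, as log2 fold change of TPM + 1 with its 95% confidence interval, without and with IL-4 (filled points passed an adjusted p under 0.2). Only values with IL-4 are filled, and the largest is Hbegf at −1.29.

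Vegfa, the main angiogenic factor, lies on chromosome 17 (GRCm38, chr17:46016993-46032369). It was at 57.7 and 67.0 TPM on untreated TC plates and at 27.2 and 32.9 TPM there with IL-4. Untreated low-collagen gels had 548 and 624 TPM, and untreated high-collagen gels 609 and 577 TPM. With IL-4 the level was 222 and 199 TPM in low-collagen gels and 289 and 340.3 TPM in high-collagen gels. Every gel library was above every TC library, every library with IL-4 was below the untreated libraries of its setting, and the 2 gels overlapped without IL-4 but not with it.

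The mean of Vegfa was 9.40 times that on TC plates in untreated low-collagen gels (log2 difference 3.21 ± 0.12 SE, adjusted p = 4.58e-08) and 9.52 times in untreated high-collagen gels (3.23, adjusted p = 3.98e-08). With IL-4 these ratios were 7.00 and 10.5 (log2 differences 2.77 and 3.35, adjusted p = 1.62e-07 and 4.08e-08). By rank Vegfa was number 29, 28, 52 and 26 from the highest of 11865 genes in these 4 comparisons. IL-4 lowered it by 1.47 on the log2 scale in low-collagen gels (SE 0.10, adjusted p = 4.14e-05), by 0.92 in high-collagen gels (adjusted p = 0.000783) and by 1.03 on TC plates (adjusted p = 0.000185). With IL-4, high-collagen gels held 1.50 times the Vegfa of low-collagen gels (log2 difference 0.58, adjusted p = 0.026), while without IL-4 the difference was 0.02 (95% confidence interval −0.21 to 0.25). The IL-4 effect itself differed between the 2 gels by 0.56 (0.22 to 0.89), which was not called (adjusted p = 0.349).

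The bases before the start site are shown for Vegfa and Pdgfc, which were both called higher in both gels without IL-4, and for Tgfb1, which varied least. Each run is the 250 bases upstream of the RefSeq start (build GRCm38.p6), 5′ to 3′ on the strand of the gene, with no annotated exon base: Vegfa chr17:46032378-46032627 (minus strand), Pdgfc chr3:81036166-81036415 (plus strand) and Tgfb1 chr7:25686752-25687001 (plus strand). Capitals mark matches, on either strand, to the letters searched.
Vegfa: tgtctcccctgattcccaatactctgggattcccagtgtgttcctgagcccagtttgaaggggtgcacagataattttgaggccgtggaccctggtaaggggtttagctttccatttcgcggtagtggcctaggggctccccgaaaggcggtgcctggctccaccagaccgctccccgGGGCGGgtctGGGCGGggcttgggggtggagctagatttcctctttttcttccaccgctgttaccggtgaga
Pdgfc: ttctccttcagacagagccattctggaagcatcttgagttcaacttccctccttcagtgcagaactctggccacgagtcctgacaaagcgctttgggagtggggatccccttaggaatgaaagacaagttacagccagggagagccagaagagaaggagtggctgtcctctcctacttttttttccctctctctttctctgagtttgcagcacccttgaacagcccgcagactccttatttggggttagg
Tgfb1: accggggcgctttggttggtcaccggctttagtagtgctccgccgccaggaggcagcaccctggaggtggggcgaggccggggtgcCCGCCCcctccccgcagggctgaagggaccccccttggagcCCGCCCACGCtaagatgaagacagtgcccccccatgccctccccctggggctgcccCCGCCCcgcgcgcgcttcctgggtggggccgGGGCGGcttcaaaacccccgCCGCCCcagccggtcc

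Those letters were ACGTG, the core of the hypoxia response element, GCGTG, the related core of xenobiotic and hypoxia elements, TTC and GAA set 3 or 4 bases apart as in STAT sites, the AP-1 site TGACTCA, the C/EBP site TTGCNNAA and the GC box GGGCGG. The Vegfa run held GGGCGG at 72 and 62 bases before the start and no other match. The Tgfb1 run held GGGCGG at 164, 123, 67, 36 and 16 bases and GCGTG at 118 bases, overlapping the second of these by 1 base, and the Pdgfc run held none of the letters searched. Bases farther than 250 upstream of a start were not searched, so a missing match does not mean that a gene lacks the site. Among 32536 RefSeq windows of the same length, GGGCGG was present in 33%, GCGTG in 28.3%, ACGTG in 16.7%, TTGCNNAA in 9.57%, the STAT spacings of 3 and 4 bases in 7.04% and 5.89%, and TGACTCA in 4.45%. A further RefSeq start of Vegfa lies inside the gene, where the window chr17:46025164-46025413, which is 218 exon bases of 250, held 1 match to ACGTG, 1 match to GCGTG and 1 match to GGGCGG. Windows were also found for Igf1, Pdgfa, Areg and Hgf, and none was used for Pdgfb, Osm and Hbegf.

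Genes of the hypoxia response, the pathway best known for inducing Vegfa, were examined as a list of 14. In untreated low-collagen gels against TC plates 7 of 13 tested were called higher and 4 lower, with a median of 0.26 against −0.13 for all genes. Of all genes 28.5% were called higher and 44.3% lower there. In untreated high-collagen gels the counts were also 7 and 4, against 28% and 45.5% of all genes. With IL-4 they were 9 and 4 in low-collagen gels, against 22.8% and 52.2%, and 9 and 2 in high-collagen gels, against 26.5% and 48.1%. Bnip3, a mitophagy receptor, was at 63.1 and 56.8 TPM on untreated TC plates and at 406 and 347 TPM in untreated low-collagen gels (log2 difference 2.63, adjusted p = 1.25e-07), and Egln3, a prolyl hydroxylase that marks HIF for degradation, was at 11.9 and 11.8 against 51.3 and 50.6 TPM (2.01, adjusted p = 3.3e-06). The glycolytic enzymes Pgk1 and Aldoa rose less, by 0.47 and 0.51.

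With IL-4, 4 of the 14 genes were called higher and 4 lower in low-collagen gels, where 13.2% of all genes were higher and 40.4% lower. In high-collagen gels 5 were higher and 2 lower, against 11.5% and 22.8%, and on TC plates 1 of 13 was higher and 8 were lower, against 14.7% and 24%. Between gels with IL-4, 3 of 14 were higher and 2 lower in high-collagen gels, against 14.1% and 6.99% of all genes. Without IL-4 limma called 0 of 14, with 1 at an unadjusted p under 0.05, against 3.23% of all genes called higher and 4.79% lower. With IL-4, Bnip3 and Egln3 were called lower in low-collagen gels (−0.22, adjusted p = 0.135, and −0.35, adjusted p = 0.0594). The median over all genes there was −0.19, and Vegfa changed by −1.47. In high-collagen gels Bnip3 and Egln3 changed by 0.16 and −0.05, neither called. Whether oxygen had a part in the Vegfa differences was not tested.

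Receptors and co-receptors of VEGF moved in their own directions. Flt1, the VEGF receptor 1 that also occurs as a soluble decoy, was at 0.529 to 1.49 TPM in the 6 untreated libraries. With IL-4 it reached 36.8 and 34.3 TPM on TC plates, 48.9 and 41.9 TPM in low-collagen gels and 28.5 and 30.4 TPM in high-collagen gels. IL-4 thus raised it by 4.50, 4.67 and 3.80 on the log2 scale (adjusted p = 7.7e-08, 2.14e-06 and 8.52e-06), and with IL-4 it was lower by 0.60 in high- than in low-collagen gels (adjusted p = 0.0939). Kdr, the main signalling receptor, was at 5.18 and 5.03 TPM on untreated TC plates and at 0.845 to 1.02 TPM in untreated gels. The semaphorin and VEGF co-receptors Nrp1 and Nrp2 were lower in untreated low-collagen gels than on TC plates by 0.69 and 1.47, and IL-4 lowered both in each gel. The summed level of the 5 endothelial markers was also higher with IL-4 in gels, going from 2.28 to 2.97 TPM in untreated low-collagen gels to 13.7 to 14.0 TPM with IL-4, and from 2.55 to 2.91 TPM to 9.59 to 11.6 TPM in high-collagen gels. On TC plates it was 6.03 to 6.18 TPM untreated and 9.20 to 11.03 TPM with IL-4. In low-collagen gels with IL-4 most of it was Pecam1, at 12.9 to 13.2 TPM. On untreated TC plates most of it was Kdr, at 5.18 and 5.03 TPM, and IL-4 there raised 1 of the 2 tested markers and lowered 1. Cdh5, Tek and Emcn did not exceed 1.11 TPM in any library. The part of this list in the Flt1 values was not tested.

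Igf1, which encodes insulin-like growth factor 1, lies on chromosome 10 (chr10:87858265-87937042). It was at 619 and 658 TPM on untreated TC plates and 1281 and 1250.3 TPM with IL-4. Low-collagen gels had 242 and 245 TPM untreated and 738 and 775 TPM with IL-4, and high-collagen gels 262 and 286 TPM untreated and 817 and 765 TPM with IL-4. Each setting was separated by IL-4 without overlap, all gel libraries lay below the TC libraries of the same treatment, and the gels overlapped only with IL-4.

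IL-4 raised Igf1 by 1.63 in low-collagen gels (SE 0.06, adjusted p = 2.94e-06), by 1.53 in high-collagen gels (adjusted p = 6.91e-06) and by 0.99 on TC plates (adjusted p = 2.17e-06), or 3.10, 2.89 and 1.98 times the untreated mean. The untreated level was 2.62 times lower in low-collagen gels and 2.33 times lower in high-collagen gels than on TC plates, and with IL-4 1.67 and 1.60 times lower. These were log2 differences of −1.38, −1.22, −0.74 and −0.68, all called. The IL-4 effect was larger in gels than on TC plates, by 0.64 in low-collagen gels (adjusted p = 0.00153) and by 0.54 in high-collagen gels (adjusted p = 0.00498). Of these 2 differences of the effect, 5 of 9 factors were called for low-collagen gels, 2 higher and 3 lower, where 9.3% of all genes were called higher and 18.7% lower, and 4 of 9 for high-collagen gels, 2 in each direction, against 8.66% and 8.61%. Between gels Igf1 differed by 0.17 without IL-4 (0.01 to 0.32, adjusted p = 0.28) and by 0.06 with it (−0.09 to 0.21), where rescaling gave −0.013.

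The 3 PDGF chains responded differently. Pdgfa (chr5:138976014-138997370) encodes the A chain, Pdgfb (chr15:79995874-80014977) the B chain, and Pdgfc (chr3:81036416-81214040) a chain that must be cleaved to become active. Levels of Pdgfa are less certain than the others, since 23.3% of the 31-base words in its transcripts also occur in another gene, nearly all of them in 6330403L08Rik. For Hgf this share was 6.31%, and for the other factors it did not exceed 2.54%.

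Pdgfb was at 26.0 and 24.6 TPM on untreated TC plates and fell to 5.05 and 4.70 TPM with IL-4. In low-collagen gels it went from 15.5 and 10.9 TPM to 6.75 and 5.93 TPM, and in high-collagen gels from 12.6 and 13.6 TPM to 7.06 and 6.70 TPM. Untreated gels were all below untreated plates, while with IL-4 the order turned and all gel libraries were above the plates. IL-4 lowered Pdgfb by 2.16 on TC plates (adjusted p = 6.28e-06), by 0.93 in low-collagen gels (adjusted p = 0.0056) and by 0.84 in high-collagen gels (adjusted p = 0.0139). The fall was smaller in low- and high-collagen gels than on plates by 1.23 and 1.33 (adjusted p = 0.00684 and 0.00603).

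Against TC plates Pdgfb was lower by 0.91 and 0.90 in untreated low- and high-collagen gels and higher by 0.32 (adjusted p = 0.093) and 0.42 (adjusted p = 0.0339) in those with IL-4. The call at 0.32 was lost without IL-4 low-collagen library 1 (0.24, adjusted p = 0.316) and without IL-4 TC library 2 (0.28, adjusted p = 0.257). Between the gels Pdgfb differed by 0.01 without IL-4 (−0.39 to 0.41) and by 0.10 with it (−0.29 to 0.50).

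Pdgfc had a lower mean level than Pdgfb over the 12 libraries. Its direction was opposite to that of Pdgfb in untreated gels against plates and with IL-4 on plates. It was at 2.19 and 1.89 TPM on untreated TC plates and rose to 6.03 and 6.77 TPM with IL-4 (log2 change 1.28, adjusted p = 0.000591). Low-collagen gels had 5.50 and 7.16 TPM untreated and 8.65 and 7.82 TPM with IL-4, and high-collagen gels 7.13 and 5.32 TPM untreated and 6.18 and 5.03 TPM with IL-4. Untreated TC plates alone lay below 5 TPM.

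Untreated gels had 3.11 and 3.05 times the Pdgfc of plates (log2 differences 1.26 and 1.24, adjusted p = 0.000183 and 0.000196, for low- and high-collagen gels). IL-4 changed it in gels by 0.34 (adjusted p = 0.204) and −0.12 (adjusted p = 0.702), so that the IL-4 effect was smaller than on plates by 0.94 in low-collagen gels (adjusted p = 0.0433) and by 1.41 in high-collagen gels (adjusted p = 0.00975). Rescaling gave a called rise of 0.52 in low-collagen gels (adjusted p = 0.066). With IL-4 Pdgfc was lower in high- than in low-collagen gels by 0.49 (adjusted p = 0.18), a call lost without any 1 of the 4 libraries compared (adjusted p 0.238 to 0.516) and under a replicate block (adjusted p = 0.228). The higher value in low-collagen gels than on plates with IL-4 (0.32, adjusted p = 0.145) was lost without low-collagen library 1 (0.25, adjusted p = 0.374) and without TC library 1 (0.25, adjusted p = 0.382).

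Pdgfa was at 24.1 and 25.3 TPM on untreated TC plates and 39.9 and 36.3 TPM with IL-4. The 2 untreated low-collagen libraries differed most among themselves, at 16.4 and 9.90 TPM, and the level with IL-4 was 20.7 and 19.8 TPM. High-collagen gels had 19.2 and 18.4 TPM untreated and 23.8 and 26.6 TPM with IL-4. The libraries with IL-4 were above the untreated ones in each setting, and gels were below plates.

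IL-4 raised Pdgfa by 0.61 on TC plates (adjusted p = 0.0341) and by 0.63 in low-collagen gels (adjusted p = 0.0455), while the change of 0.40 in high-collagen gels was not called (adjusted p = 0.213). It was called in 4 of 15 alternatives, which were rescaling (0.50, adjusted p = 0.167), a fit of all 12 libraries (0.148) and leaving out untreated low-collagen library 1 (0.0408) or 2 (0.0371). The value in low-collagen gels was 0.96 without untreated library 1 and 0.29 without untreated library 2. Against plates Pdgfa was lower by 0.90 and 0.37 in untreated low- and high-collagen gels and by 0.88 and 0.58 with IL-4. The first of these was a log2 difference of −0.57 without untreated low-collagen library 2, and the second was lost without untreated TC library 2 (−0.34, adjusted p = 0.24), without untreated high-collagen library 2 (−0.35, adjusted p = 0.235) and after rescaling (−0.19, adjusted p = 0.416).

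Hbegf and Areg encode ligands of the EGF receptor that are shed from the membrane. Hbegf was at 0.984 and 1.27 TPM on untreated TC plates, 0.394 and 0.243 TPM in untreated low-collagen gels and 0.0798 and 0.0669 TPM in untreated high-collagen gels. With IL-4 it reached 29.1 and 27.2 TPM on plates, 16.0 and 15.7 TPM in low-collagen gels and 5.17 and 6.68 TPM in high-collagen gels. The order of plates, low- and high-collagen gels was the same without and with IL-4, with no overlap at either.

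IL-4 raised the mean of Hbegf 25.0 times on TC plates, 49.7 times in low-collagen gels and 80.8 times in high-collagen gels, or by 3.78, 3.68 and 2.68 as log2 of TPM + 1 (adjusted p = 2.53e-07, 1.03e-05 and 8.2e-05). The log2 scale with its added 1 understates changes from levels under 1 TPM, and on it the order of the settings ran the other way. With IL-4 high-collagen gels had 2.67 times less Hbegf than low-collagen gels (log2 difference −1.29 ± 0.19 SE, adjusted p = 0.017), number 62 from the lowest of 11852 genes, and 4.75 times less than plates (−2.08, adjusted p = 3.64e-06). Against plates Hbegf was also called lower in untreated low-collagen gels (−0.69, adjusted p = 0.00448), untreated high-collagen gels (−0.98, adjusted p = 0.000491) and low-collagen gels with IL-4 (−0.79, adjusted p = 0.00192). Without IL-4 the difference between gels was not called (−0.29, −0.74 to 0.15), except with a pseudocount of 0.1 (−1.25, adjusted p = 0.165). In high-collagen gels the response of Hbegf was 1.10 below that on plates (adjusted p = 0.0213), but with a pseudocount of 0.1 it was 0.58 above it (adjusted p = 0.464).

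Areg was listed at 0.410 and 0.440 TPM on untreated TC plates, at 0 and 0.126 TPM in untreated low-collagen gels and at 0 in the other libraries. It was below the filter and was not tested. The list of 6 markers of mast cells, basophils and ILC2, cells known for making amphiregulin, summed to 2.16 to 2.94 TPM on untreated TC plates, 7.67 to 9.23 TPM there with IL-4 and at most 2.13 TPM in gels. The only marker with a mean of at least 1 was Il1rl1, the IL-33 receptor, and Fcer1a, Mcpt8 and Cpa3 did not exceed 0.19 TPM in any library.

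Tgfb1, on chromosome 7 (chr7:25687002-25705077), was at 172 and 202 TPM on untreated TC plates and 212 and 189 TPM with IL-4. It was at 204 and 180.2 TPM in untreated low-collagen gels, 167 and 181 TPM there with IL-4, 169 and 158 TPM in untreated high-collagen gels and 151 and 154 TPM there with IL-4. Values overlapped between treatments on plates and in low-collagen gels.

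IL-4 changed Tgfb1 by 0.10 on TC plates (95% confidence interval −0.11 to 0.32), by −0.14 in low-collagen gels (−0.33 to 0.05, and 0.066 after rescaling) and by −0.10 in high-collagen gels (−0.29 to 0.08), none of them called. Between gels it was 0.23 lower in untreated high-collagen gels (log2 difference −0.23, adjusted p = 0.231) and 0.19 lower with IL-4 (−0.19, adjusted p = 0.212), also not called, although rescaling gave a call with IL-4 (−0.27, adjusted p = 0.194). In untreated low-collagen gels against plates it differed by 0.04, which rescaling turned into a call (0.21, adjusted p = 0.128). Against plates it was called lower in 3 comparisons, by 0.19 in untreated high-collagen gels (adjusted p = 0.114), 0.20 in low-collagen gels with IL-4 (adjusted p = 0.0874) and 0.39 in high-collagen gels with IL-4 (adjusted p = 0.00484), and rescaling ended all 3 calls and turned the first 2 (0.0045, 0.11 and −0.15). The first call was also lost without untreated TC library 2 (−0.07, adjusted p = 0.587) or untreated high-collagen library 2 (−0.14, adjusted p = 0.356) and was −0.30 without untreated TC library 1, and the second without TC library 1 (−0.12, adjusted p = 0.385) or low-collagen library 1 (−0.14, adjusted p = 0.328), both with IL-4.

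Thbs1, which encodes the matricellular protein thrombospondin 1, known for activating latent TGF-beta, was at 35.9 and 32.9 TPM on untreated TC plates, 438 and 435 TPM in untreated low-collagen gels and 668 and 528 TPM in untreated high-collagen gels. With IL-4 it was at 7.49 and 7.56 TPM on plates, 53.8 and 53.1 TPM in low-collagen gels and 182 and 147 TPM in high-collagen gels. All gel libraries were above plates of the same treatment, and the gels did not overlap. It was higher in low-collagen gels than on plates by 3.63 without IL-4 (adjusted p = 2.7e-08), changed with IL-4 by −3.01 in low- and by −1.85 in high-collagen gels, both called, and was higher in high- than in low-collagen gels by 1.59 with IL-4 (adjusted p = 0.00347) and by 0.44 without it (adjusted p = 0.155). Nrros, which anchors latent TGF-beta on macrophages, rose with IL-4 by 0.44, 0.31 and 0.19 in low-collagen gels, high-collagen gels and on plates.

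Of the 12 genes on the TGF-beta response list, IL-4 raised 3 and lowered 5 in low-collagen gels, raised 1 and lowered 7 in high-collagen gels, and raised 3 and lowered 5 on TC plates, against the 13.2% and 40.4%, 11.5% and 22.8%, and 14.7% and 24% of all genes called higher and lower there. In untreated low-collagen gels against plates 0 were higher and 8 lower (median −0.31 against −0.13 for all genes), where 28.5% of all genes were called higher and 44.3% lower. In untreated high-collagen gels 1 was higher and 6 lower, against 28% and 45.5%. With IL-4 the counts were 0 and 8 in low-collagen gels, against 22.8% and 52.2%, and 1 and 8 in high-collagen gels, against 26.5% and 48.1%. High- against low-collagen gels gave 3 higher and 0 lower without IL-4, against 3.23% and 4.79%. With IL-4 they gave 4 higher and 1 lower, against 14.1% and 6.99%. Tgfbi, a secreted matrix protein induced by TGF-beta, changed with IL-4 by −1.23, −1.15 and −0.84 in low-collagen gels, high-collagen gels and on plates, all called lower, and was higher in high- than in low-collagen gels by 0.34 without IL-4 (adjusted p = 0.0827) and by 0.43 with it (adjusted p = 0.0237). Smad3, a transcription factor of the pathway, changed with IL-4 by −1.50, −0.98 and −1.25 in the same order, all called, whereas the repressor Bhlhe40 rose by 2.62, 2.37 and 2.00. Ski, a SMAD corepressor, was not called with IL-4 in any setting.

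Osm (chr11:4236420-4241026) was at 16.5 TPM in both untreated TC libraries, 14.1 and 13.5 TPM on plates with IL-4, 12.4 and 13.5 TPM in untreated low-collagen gels, 10.5 and 11.4 TPM there with IL-4, 12.8 and 10.1 TPM in untreated high-collagen gels and 9.61 and 9.79 TPM there with IL-4. Gels were below plates of the same treatment and libraries with IL-4 below untreated ones, without overlap. IL-4 changed Osm by −0.24 on plates (adjusted p = 0.186), −0.22 in low-collagen gels (adjusted p = 0.243) and −0.21 in high-collagen gels (adjusted p = 0.337). The call on plates was lost in 8 of 12 fits that left out 1 library, the values lying between −0.27 and −0.21, after rescaling (−0.18, adjusted p = 0.312) and under a replicate block (adjusted p = 0.223). Against plates Osm was lower by 0.32 and 0.50 in untreated low- and high-collagen gels and by 0.31 and 0.47 with IL-4, and rescaling ended the calls for low-collagen gels (−0.16, adjusted p = 0.268, and −0.01, adjusted p = 0.952).

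Hgf (chr5:16553495-16620152) was at 8.73 and 7.90 TPM on untreated TC plates and 7.76 and 8.36 TPM with IL-4. Low-collagen gels had 7.60 and 10.7 TPM untreated and 3.73 and 4.08 TPM with IL-4, and high-collagen gels 7.22 and 6.31 TPM untreated and 5.51 and 5.90 TPM with IL-4. The lowest libraries were the 2 low-collagen gels with IL-4.

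IL-4 lowered Hgf by 1.03 in low-collagen gels (SE 0.18, adjusted p = 0.00415), and the changes of −0.21 in high-collagen gels (−0.62 to 0.20) and −0.04 on plates (−0.39 to 0.32, and 0.012 after rescaling) were not called. The effect in low-collagen gels was 0.99 below that on plates (adjusted p = 0.0217), and its difference from high-collagen gels (0.82) was not called (adjusted p = 0.386). With IL-4 Hgf was 0.45 higher in high- than in low-collagen gels (adjusted p = 0.183), a call lost without any 1 of the 4 libraries compared (adjusted p 0.31 to 0.459) or either untreated high-collagen library (0.226 and 0.224), and under a replicate block (0.227). Against plates it was lower with IL-4 by 0.89 in low-collagen gels (adjusted p = 0.000819) and by 0.43 in high-collagen gels (adjusted p = 0.0365, lost after rescaling at −0.22). Its call in untreated high-collagen gels (−0.26, adjusted p = 0.178) was lost after rescaling (−0.09) and without any 1 of 7 libraries, with values between −0.33 and −0.18. In untreated low-collagen gels it differed by 0.11, which was called in 2 of 18 alternatives, after rescaling (0.26, adjusted p = 0.158) and without untreated low-collagen library 1 (0.33, adjusted p = 0.106). Spint2, an inhibitor of the proteases that activate HGF, rose with IL-4 from 1.38 and 2.03 to 6.04 and 5.50 TPM in low-collagen gels and from 1.80 and 2.71 to 11.2 and 11.7 TPM in high-collagen gels, and did not exceed 0.442 TPM on plates.

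Few relatives of the 10 factors were expressed. Of 18 related ligands of the same families, 3 reached the filter. In limma fits 0 of these were called with IL-4 in low- or high-collagen gels or on TC plates, and 0 had an unadjusted p under 0.05. Of all genes 13.2% were called higher and 40.4% lower in low-collagen gels, 11.5% and 22.8% in high-collagen gels, and 14.7% and 24% on plates. With 3 genes tested, 0 calls say little about the families. Vegfb, a VEGF family member, averaged 60.7 TPM and changed by −0.05 to 0.13 in every comparison, none of them called. Tgfb3, a further TGF-beta isoform, was at most 0.585 TPM on plates and 1.15 to 2.49 TPM in gels, higher by 0.88 and 0.61 in untreated low- and high-collagen gels.

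Receptors and processing proteins were more often measured. Of 21 receptors 10 were tested in gels, where IL-4 raised 2 and lowered 6 in low-collagen gels (median −0.47 against −0.19 for all genes) and again raised 2 and lowered 6 in high-collagen gels, and of 11 tested on plates it raised 3 and lowered 4. Pdgfra, the receptor of the A chain, did not exceed 0.103 TPM. Of 28 binding, latency and activation proteins 17 were tested, and IL-4 raised 5 and lowered 9 in low-collagen gels, raised 4 and lowered 4 in high-collagen gels, and raised 4 and lowered 8 on plates. Of all genes, 13.2% were called higher and 40.4% lower in low-collagen gels, 11.5% and 22.8% in high-collagen gels, and 14.7% and 24% on plates. In untreated low-collagen gels against plates 4 of 11 receptors were higher and 5 lower, as were 5 and 8 of the 17 proteins. There 28.5% of all genes were called higher and 44.3% lower. In untreated high-collagen gels the counts were 5 and 4 for receptors and 4 and 8 for the proteins, against 28% and 45.5% of all genes. High- against low-collagen gels with IL-4 had 7 of the 17 proteins higher and 3 lower (median 0.33 against 0.06 for all genes). Of all genes 14.1% were called higher and 6.99% lower in that comparison.

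**Figure D5:**
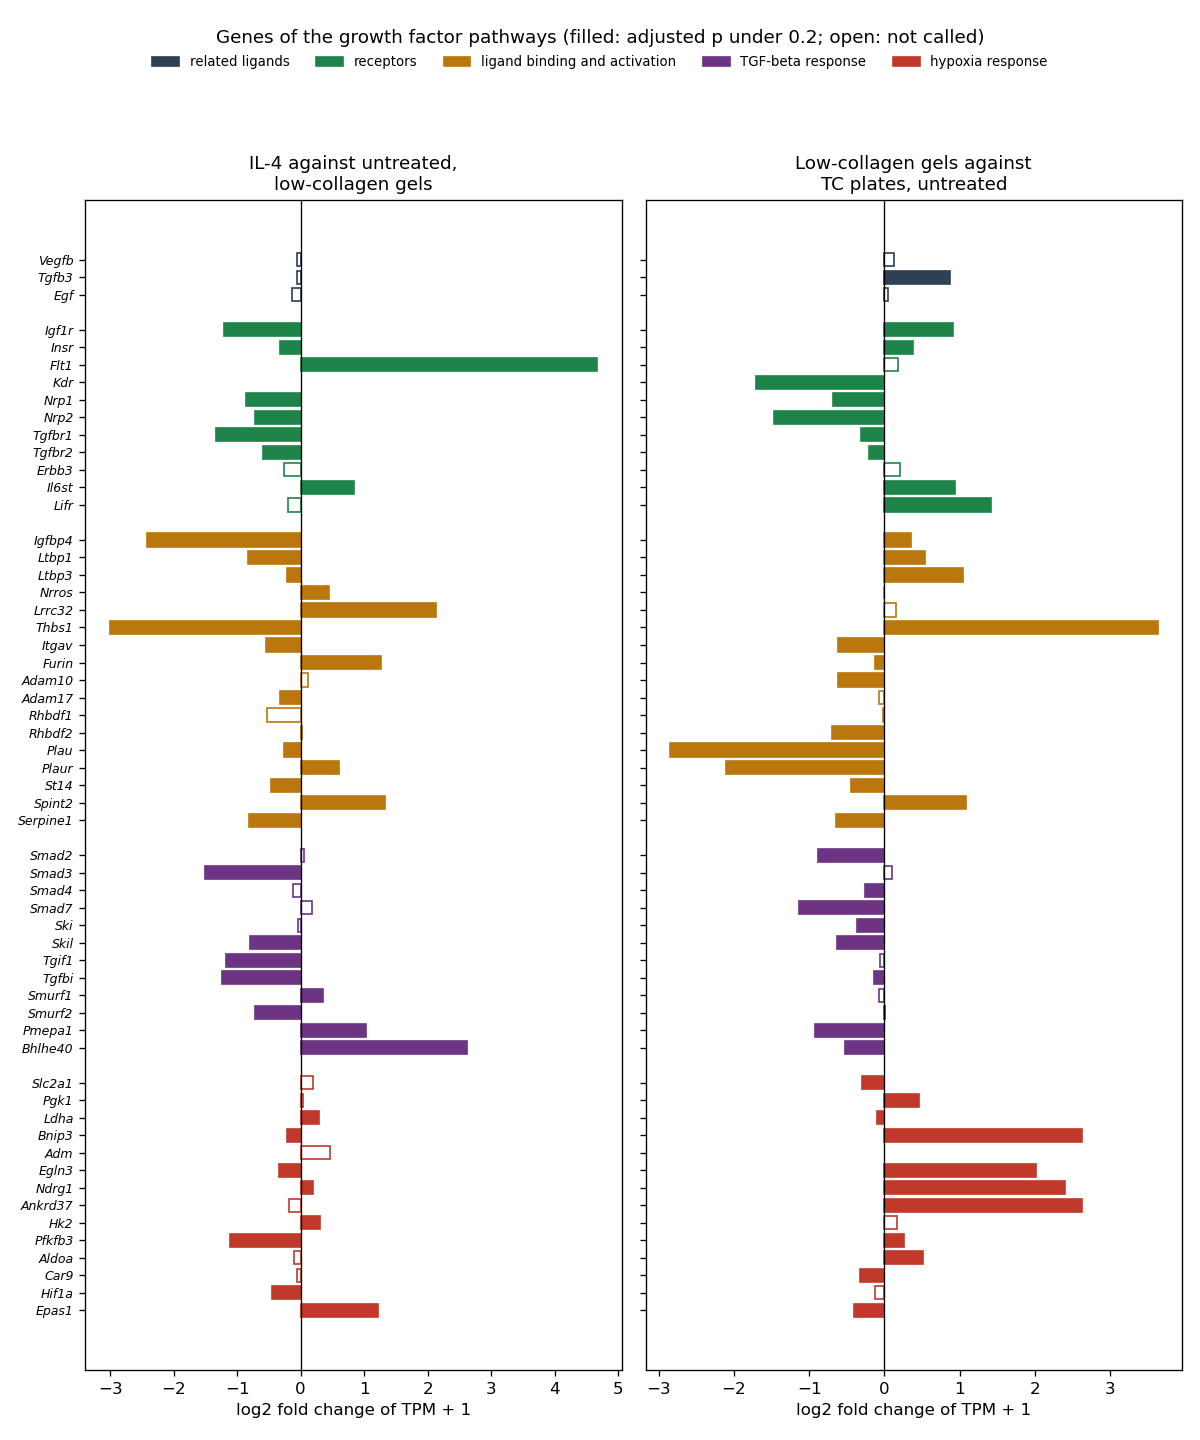
Log2 fold change of TPM + 1 of the tested genes of 5 lists (colour) with IL-4 in low-collagen gels, left, and in untreated low-collagen gels against TC plates, right (filled bars passed an adjusted p under 0.2). Flt1 has the longest bar to the right with IL-4 (4.67), and Thbs1 the longest to the left with IL-4 (−3.01) and the longest to the right in gels against plates (3.63).

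The genes whose log2 level followed each factor most closely over the 12 libraries were sought among 11865 genes, as a description, since the 12 points fall into 6 conditions and share library effects. Closest to Vegfa were Itm2b, Peli2 and Btg1 (Pearson r = 0.998, 0.997 and 0.995), closest to Igf1 were Dusp4, Cd300ld and Dut (0.996, 0.984 and 0.981), and closest to Hbegf were Ap2m1, Ctsl and Ceacam19 (0.990, 0.987 and 0.985). Pdgfb was closest to Coro1a, Cd14 and BC037034 (0.975, 0.965 and 0.951), Pdgfc to Evl, Ms4a4a and Gm18537 (0.972, 0.950 and 0.943), Hgf to Zfp512b, Snx13 and Rab5a (0.952, 0.946 and 0.944), and Pdgfa to Prkcsh, Pde4dip and Tspan5 (0.940, 0.924 and 0.912). Among the factors themselves, r over the same libraries was 0.90 for Igf1 and Hbegf and 0.85 for Igf1 and Pdgfa, and was −0.81 for Igf1 and Vegfa, for Pdgfa and Vegfa and for Pdgfb and Hbegf.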

How the data were processed

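RNA-seq was analysed from 12 BMDM libraries in 6 conditions taken from the sample labels. Libraries of stranded mRNA were read from both ends. The authors quantified transcripts with kallisto 0.46.1 on GRCm38 and deposited one table of TPM per gene and library. How transcripts were summed to genes is not given in the sources used here. Since kallisto divides reads among similar transcripts, genes that share sequence are less certain, and a deposited 0 can be a failed estimate. Read counts and depth were not analysed here, so no count test was used.

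Of 34456 rows, 129 repeated a symbol with the same values and were collapsed. Values were taken as log2(TPM + 1) and fitted with limma 3.58.1 in R 4.3.3, with 1 mean per condition and a trend of variance on mean. Genes averaging at least 1 TPM were tested, and p-values were adjusted over all of them by the Benjamini-Hochberg method. The 8 gel libraries entered a fit of 11852 genes, and all 12 libraries a fit of 11865 genes for contrasts with TC plates. A called gene had an adjusted p under 0.2. The fit of the 8 gel libraries was tested on simulated data for the contrast of IL-4 in low-collagen gels only. The other contrasts and the fit of all 12 libraries were not simulated. Alternatives were a pseudocount of 0.1, no filter, no mean-variance trend, median-ratio rescaling, a replicate block, all 12 libraries in the gel contrasts, an adjusted p under 0.05 and each library left out in turn.

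All 10 factors are named. Pathway lists covered related ligands, receptors, binding and activation proteins, the TGF-beta response and the hypoxia response. Of each list, the 2 tested genes with the highest mean and the 2 with the largest called change were named, then, for each factor spanning at least 1 on the log2 scale, the 3 genes with the highest correlation, and Arg1. Other genes named in the text were chosen after their values were seen. The members and lists were chosen with earlier results of these data known. Gene positions come from GENCODE on GRCm38, and words of 31 bases shared between genes were counted on its transcripts. Upstream sequences are from RefSeq (GRCm38.p6). Tables and figures were made with matplotlib 3.10.9, numpy 2.4.6 and pandas 2.3.3 under Python 3.11.15.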

Additional observations from a re-analysis of the deposited data

Results flagged for a closer look

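For 6 factors the response to IL-4 was called different from TC plates in at least 1 gel, by a limma test of the difference. The scale was log2(TPM + 1), with 2 libraries per condition. For low-collagen gels 5 of 9 factors were called, where 9.3% of all genes were called higher and 18.7% lower. For high-collagen gels 4 of 9 were called, against 8.66% and 8.61% of all genes. The 2 gel comparisons share the TC libraries.

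The rise of Igf1 was larger in low-collagen gels by 0.64 (adjusted p = 0.00153) and in high-collagen gels by 0.54 (adjusted p = 0.00498), and untreated gels started from less than the TC plates. For Pdgfb, the fall was smaller by 1.23 (adjusted p = 0.00684) and 1.33 (adjusted p = 0.00603). Pdgfc was called higher with IL-4 on TC plates and was not called in gels, and its IL-4 effect was −0.94 (adjusted p = 0.0433) and −1.41 (adjusted p = 0.00975) relative to plates. In low-collagen gels the effect on Hgf was −0.99 relative to plates (adjusted p = 0.0217). The effect on Vegfa in low-collagen gels was −0.44 relative to plates (adjusted p = 0.133). That call was lost without untreated TC library 1 (−0.34), IL-4 TC library 2 (−0.31), untreated low-collagen library 2 (−0.35) or IL-4 low-collagen library 2 (−0.36), after median-ratio rescaling (−0.30, adjusted p = 0.248) and without a filter (adjusted p = 0.247). The effect on Hbegf in high-collagen gels was −1.10 relative to plates (adjusted p = 0.0213) and turned to 0.58 with a pseudocount of 0.1.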

How the results depend on the processing

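Of 63 calls, 0 were lost without the mean-variance trend, 1 with a pseudocount of 0.1, 3 under the replicate block, 6 without a filter, 10 after rescaling and 10 at an adjusted p under 0.05. High against low collagen with IL-4 had 4 factors called, but 2 without a filter, with the replicate block and at an adjusted p under 0.05, and 2 to 6 when 1 library was left out. High against low collagen untreated had 0, but 1 with a pseudocount of 0.1, 2 with all 12 libraries in the fit, and 0 to 1 when 1 library was left out. Replicate numbers shared only a number, since differences between replicates correlated at −0.123 to 0.109 across conditions, and the replicate block changed no other count by over 1.5 times. With a pseudocount of 0.1 the difference of the IL-4 effect of Hbegf from TC plates turned from −0.10 to 0.74 for low-collagen gels and from −1.10 to 0.58 for high-collagen gels. Rescaling turned the sign for Tgfb1 (IL-4 in low-collagen gels 0.066, high-collagen gels against TC plates untreated 0.0045, with IL-4 low-collagen gels against TC plates 0.11), Igf1 (high against low collagen with IL-4 −0.013), Pdgfc (high against low collagen untreated 0.0013, with IL-4 high-collagen gels against TC plates 0.046), Hgf (IL-4 on TC plates 0.012) and Hbegf (difference of the IL-4 effect, low-collagen gels and TC plates 0.11). Leaving out 1 library turned uncalled values near 0, over ranges of −0.30 to 0.059 for Pdgfc with IL-4 in high-collagen gels, −0.23 to 0.25, −0.20 to 0.16 and −0.073 to 0.11 for Pdgfb, Pdgfc and Vegfa in high against low collagen untreated, −0.012 to 0.22 and −0.10 to 0.025 for Tgfb1 and Hgf with IL-4 on TC plates, and −0.074 to 0.16 and −0.11 to 0.33 for Tgfb1 and Hgf in untreated low-collagen gels against TC plates. Where a condition was left with 1 library, that library was assumed to vary like the others. The causes were not tested. The 2 libraries per condition and values without depth limit what can be seen in Areg, in untreated Hbegf and in changes near 0.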

Other observations

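Genes that modify the factors outside the cell also differed between conditions. They are named here after their values were seen. Igfbp4, which encodes a secreted binding protein of IGF-1, was at 236 and 237 TPM on untreated TC plates, 299.7 and 307 TPM in untreated low-collagen gels and 349.7 and 261 TPM in untreated high-collagen gels. With IL-4 it was at 103 and 101 TPM on plates, 56.5 and 55.0 TPM in low-collagen gels and 74.2 and 69.5 TPM in high-collagen gels. It was lower with IL-4 in every setting, by −1.21, −2.42 and −2.06 on the log2 scale. Igf1r, the IGF-1 receptor, changed by −1.20 and −0.52 with IL-4 in low- and high-collagen gels (adjusted p = 0.00268 and 0.108).

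The urokinase gene Plau, whose product cleaves plasminogen and can activate HGF, was at 452 and 424 TPM on untreated TC plates, 53.8 and 66.6 TPM in untreated low-collagen gels and 56.0 and 58.2 TPM in untreated high-collagen gels. The log2 differences of −2.85 and −2.92 had adjusted p = 2.7e-08 and 1.88e-08, and those of its receptor gene Plaur were −2.11 and −1.90. The TGF-beta receptor gene Tgfbr1 changed by −1.33, −0.88 and −0.30 with IL-4 in low-collagen gels, high-collagen gels and on TC plates, all called. Il6st, the signalling receptor shared by oncostatin M and IL-6, rose by 0.84, 0.60 and 1.49.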
